A study of Mus musculus with 6 samples.

Results

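Cytosolic ribosomal proteins were read in natural killer cells (NKC) by the probe sets whose only annotated gene was an Rpl or Rps gene, and 105 probe sets for 49 genes of the 18193 named genes met this rule. Kinases of the Rps6k family, pseudogenes and binding proteins with similar symbols were left out. The NKC were splenic and came from mice of the ICR strain at 6 weeks of age, of which 3 were wild type (WT) and 3 were homozygous for the loss of the transcription factor Runx3 (Runx3-/-). They were taken without stimulation (resting), enriched by negative selection and then sorted for the surface antigen DX5, which other blood cells can also carry. Per the design text each of the 6 arrays held RNA of a separate mouse, although their sex is labelled as male and female alike, and the precision of every value is limited by these 3 arrays per group.

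A cytosolic ribosome joins a small subunit, which reads the mRNA, to a large subunit, which forms the peptide bond, and each cytosolic ribosomal protein binds to one of them. The P stalk of the large subunit recruits the elongation factors. Vertebrate ribosomal protein mRNAs usually begin with a C and a run of pyrimidines, the 5′ TOP motif, through which the mTOR kinase and the RNA-binding protein Larp1 control their translation, so that a change in their use by the ribosome need not appear in the mRNA level.

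Of the 49 genes, 20 belonged to the large subunit, 21 to the small subunit and 2, Rplp0 and Rplp2, to the P stalk. The other 6 were paralogs, Rpl3l, Rpl7l1, Rpl22l1, Rpl39l, Rps4l and Rps27l, which resemble a ribosomal protein but are not among its standard forms. Of 80 core ribosomal protein genes, 43 had a probe set of their own under this rule. A further 27, among them Rpl3, Rpl5, Rpl10, Rpl36a and the stalk protein Rplp1, were read only by probe sets that list several genes, Fau had its own probe sets but a symbol outside the rule, and 9 were not analysed here.

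Runx3 itself had log2 7.76, 8.51 and 8.68 in Runx3-/- replicates 1 to 3 and 10.11, 11.56 and 10.73 in WT, a difference of -2.48 with no overlap (limma adjusted p = 0.0565), and whether its probe set lies in the deleted part is not known here. Of the 5 measured NK cell markers, 1 was lower in Runx3-/- (Eomes, -0.70) and 0 were higher at p under 0.05 and 1.5-fold. All 5 measured basophil and mast cell markers were higher, with a mean of log2 11.51 to 12.43 on the Runx3-/- arrays and 9.69 to 10.14 on the WT arrays, as were 2 of 3 tested B cell markers, 2 of 5 macrophage markers and 8 of 18 cell cycle genes. The B cell list had a mean of 6.26 to 6.92 in Runx3-/- and 4.52 to 6.09 in WT, with Pax5 below log2 5 on every array, the macrophage list 5.90 to 9.26 against 6.99 to 7.17, and the cell cycle list 10.28 to 10.83 against 9.40 to 10.15. Of the 3 tested T cell and 3 tested platelet markers 0 passed, and the 2 erythroid markers found were below log2 5 on all arrays. The part of these shifts in the values below was not tested, and in such bulk samples fewer cells of a type and less RNA per cell cannot be told apart.

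The starts of several member genes show the sequence that names their mRNA class. The windows below (RefSeq, GRCm38.p6) run 5′ to 3′ over the 30 bases before the annotated start in lower case and the 15 bases from it in capitals. The first 4 genes begin with C and at least 4 pyrimidines. Rpl27a and Rpl7l1, which with Rpl14 had the largest differences below, and Rpsa do not start so in this annotation. The 15 bases of Rpl27a from its start are nonetheless all pyrimidines, with a C just before them.
Rpl14, chr9:120571487-120571531, plus strand: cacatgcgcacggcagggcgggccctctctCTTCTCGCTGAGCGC
Rpl35, chr2:39005117-39005161, minus strand: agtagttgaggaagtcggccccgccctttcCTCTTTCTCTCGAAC
Rps18, chr17:33955651-33955695, minus strand: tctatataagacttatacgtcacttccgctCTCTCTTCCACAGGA
Rps6, chr4:86857353-86857397, minus strand: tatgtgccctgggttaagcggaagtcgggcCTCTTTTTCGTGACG
Rpl27a, chr7:109519165-109519209, plus strand: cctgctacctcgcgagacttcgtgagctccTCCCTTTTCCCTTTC
Rpl7l1, chr17:46782642-46782686, minus strand: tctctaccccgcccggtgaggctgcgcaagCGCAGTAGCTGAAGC
Rpsa, chr9:120127736-120127780, plus strand: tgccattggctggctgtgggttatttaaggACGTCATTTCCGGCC
In all, 8 of 51 windows of 43 member genes (15.7%) began with C and 4 or more pyrimidines (C or T), against 2.51% of 32851 windows of all genes, and annotated starts can lie some bases away from the start used in a cell. The letters CCGGAAG, the core bound by many ETS factors, stood on either strand of the whole windows (250 bases before the start, 50 after) in 41.2% of member windows and 8.86% of all. The RUNX words TGTGGT or TGCGGT on either strand were present in 15.7% of member windows and 22.4% of all. The study's RUNX motif also takes in TGTGGC and TGCGGC, which were not counted here. The study reports TGCGGT and TGCGGC as the variants more prevalent in Runx3-bound promoters, so this share does not cover its whole motif. Overlap among the counted words was not removed, and a match is a description of the letters and not a site of binding.

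At the gene level the cytosolic ribosomal proteins differed little between Runx3-/- and WT resting NKC. Of the 49 genes, 44 reached log2 5 on 1 or more arrays in their brightest probe set and were tested. Of these 44, 28 had a mean of at least log2 14, while the highest value on any array was log2 16.13. Whether differences are compressed at such high signals was not tested. The Runx3-/- signal was lower by at least 1.5-fold with p under 0.05, the study's thresholds, in 3 genes, Rpl27a, Rpl14 and Rpl7l1, and higher in 0. These 3 are 6.82% of the members, while 8.86% of all 9545 tested genes were lower and 4.89% higher at the same thresholds. Calls were rarer among bright genes. At a mean of at least log2 12, a cut chosen after seeing the values, 16 of 851 genes (1.88%) were lower and 9 higher. Of the 35 members above this cut, 0 were lower and 0 higher, so all 3 calls were among the dimmer members. The 8.86% is therefore not a comparison at like brightness. After Benjamini-Hochberg adjustment over all tested genes, 0 members passed 5% in limma, beside 0.608% of all genes, and the smallest adjusted p of a member was 0.216. At an unadjusted p under 0.05 there were 3 members (6.82%) beside 16.04% of all tested genes. This gap depended on the settings. With the limma variance prior allowed to follow the mean signal there were 7 of 44 members, beside 1537 of 9545 genes. Without the filter at log2 5 there were 7 of 49 members, beside 2026 of 18193 genes.

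In the deposited scaling most members lay slightly below zero. The difference of Runx3-/- minus WT was negative in 39 of 44 members (88.6%), with a median of -0.17 and quartiles of -0.27 and -0.05, while 62.2% of all tested genes were negative with a median of -0.13. With each array centred on the median of its tested genes, chosen after seeing the data, the median of all genes was -0.01 and that of the members -0.05, with 27 of 44 members below zero. In that scaling 2 members were lower at the thresholds and 0 higher, beside 498 lower and 627 higher of all tested genes, where the deposited scaling gave 846 and 467. With quantile normalization 32 were below zero and the median was -0.11. The 3 Runx3-/- arrays did not overlap the 3 WT arrays in 10 members, all lower, which is 22.7% of the members. Of all 9545 tested genes, 2173 (22.8%) did not overlap in either direction, and 1602 of these were lower. The genes with a mean of at least log2 12, also chosen after the values were seen, gave a median of -0.17 over 35 members and -0.06 over all 851 such genes. Groups did not overlap in 9 of these members (25.7%), all lower. Among the 851 genes they did not overlap in 143 (16.8%), of which 111 were lower.

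**Figure D1:**
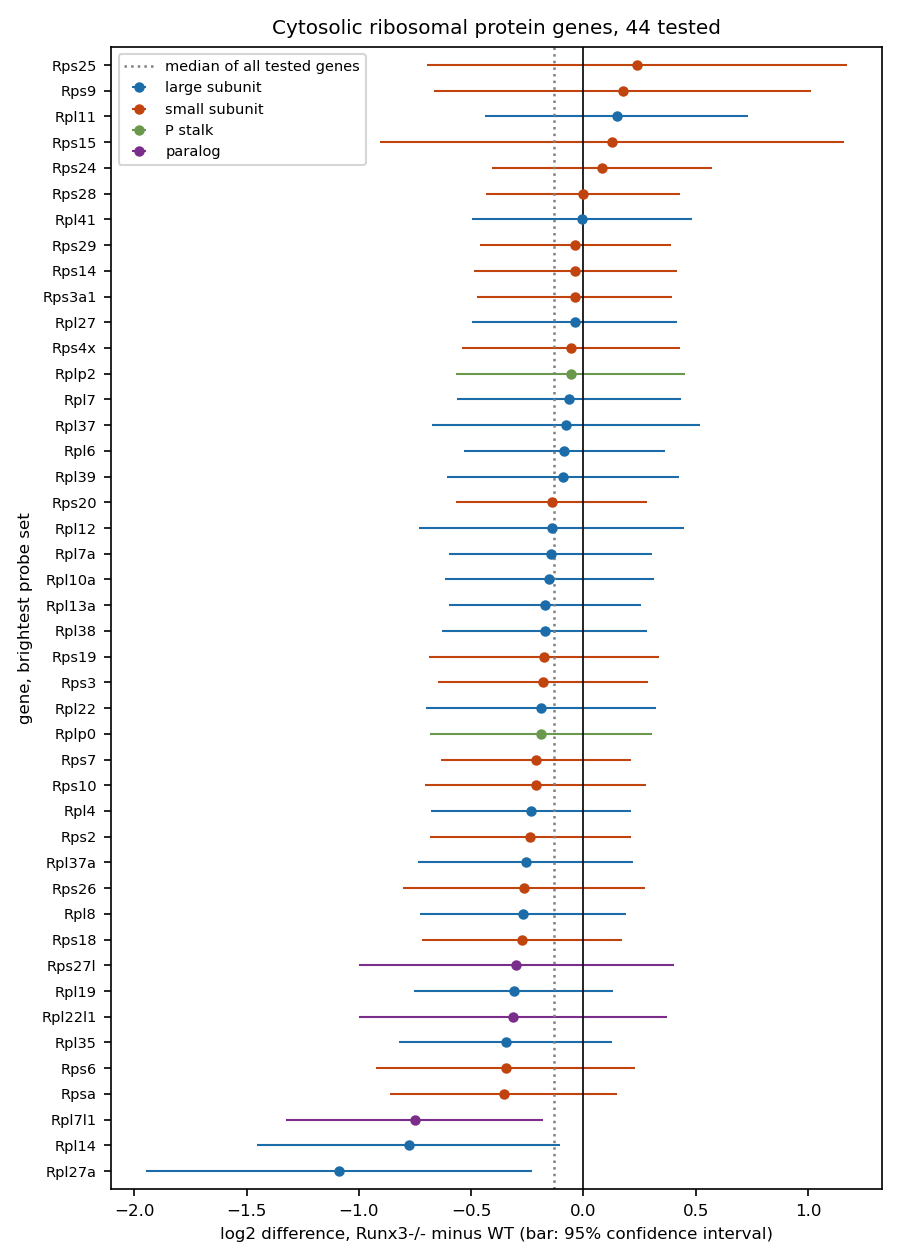
Difference in log2 signal between Runx3-/- and WT (horizontal axis) for each of the 44 tested members (vertical axis), with bars for the 95% confidence interval of the limma fit and colours for the subunit. The intervals of 3 genes, Rpl7l1, Rpl14 and Rpl27a, lie below zero, and the other 41 span it.

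The members had a smaller spread than the tested genes as a whole. The median SD within a group was 0.19 log2 units for members and 0.32 for all tested genes, and the median standard error of the difference was 0.21 and 0.26. Among genes with a mean of at least log2 12 the median standard errors were closer, 0.20 for the 35 members and 0.22 for all 851 genes. These standard errors come from limma, which draws the variance of each gene towards a common value and so brings them closer together. The 95% confidence interval of the difference lay within 2-fold in either direction for 37 of 44 members (84.1%), against 56.3% of all tested genes, and within 1.5-fold for 12 members. For the others it reached past 1.5-fold in at least one direction.

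The mean over all 105 member probe sets was log2 11.02, 10.87 and 11.05 on Runx3-/- arrays 1, 2 and 3 and 10.99, 11.05 and 11.26 on WT arrays 1, 2 and 3. The groups overlapped, with means of 10.98 ± 0.10 and 11.10 ± 0.14 (SD, n = 3) and a difference of -0.12. Without WT replicate 3 the difference was -0.04, and without Runx3-/- replicate 2 it was -0.07. With quantile normalization it was -0.075, and with arrays centred on the median of their tested genes -1.8e-05. These means take in 17 probe sets below log2 5 on every array. Over the 86 probe sets at log2 5 or more on all arrays the difference in the deposited scaling was -0.155. Over the brightest probe sets of the 44 tested members the arrays of the groups stood apart, at 13.39, 13.22 and 13.39 in Runx3-/- and 13.41, 13.51 and 13.63 in WT, a difference of -0.18. The mean of all 9545 tested genes overlapped, at 8.94, 8.83 and 8.79 in Runx3-/- and 8.90, 8.93 and 8.97 in WT, a difference of -0.08. Their median stood apart narrowly, at 8.97, 8.87 and 8.85 in Runx3-/- and 8.98, 9.04 and 9.04 in WT. Runx3-/- replicate 2 was the lowest of the 6 arrays in 19 of 44 members and in 23.8% of all tested genes, and WT replicate 3 was the highest in 18 members and in 28.9% of all.

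**Figure D2:**
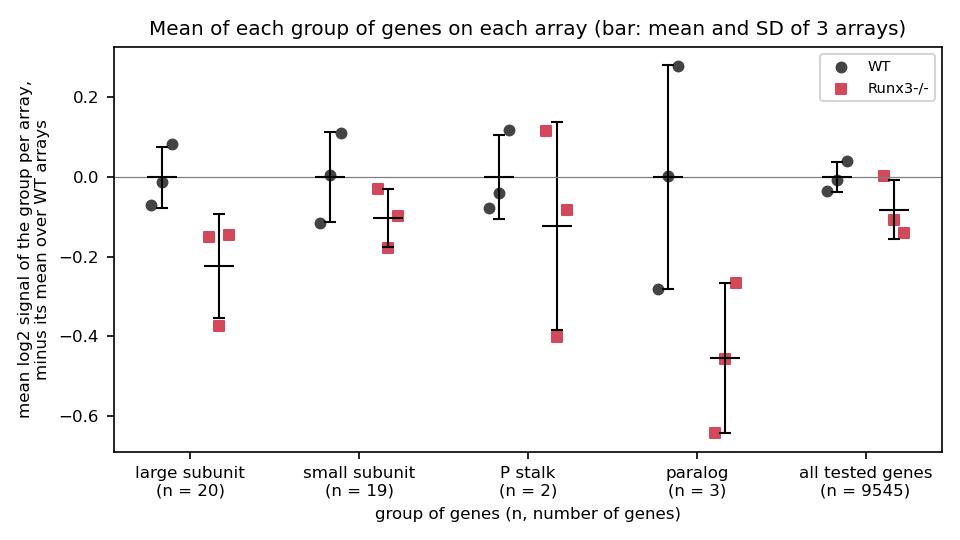
Mean log2 signal of the tested genes of each group on each array (vertical axis), drawn relative to the WT mean of the same group, for the large subunit, the small subunit, the P stalk, the paralogs and all 9545 tested genes. Bars give the mean and SD of 3 arrays. The Runx3-/- means lie below the WT means by 0.22 in the large subunit, 0.10 in the small subunit, 0.12 in the P stalk, 0.45 in the paralogs and 0.08 over all tested genes.

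The difference of the large subunit genes had a median of -0.16, with 19 of 20 genes below zero and 2 at the thresholds. Rpl27a, a large subunit protein, had log2 9.27, 7.89 and 8.21 in Runx3-/- and 9.78, 9.58 and 9.27 in WT. Runx3-/- replicate 1 met the lowest WT array, and the other two were below all WT arrays. The difference was -1.09 ± 0.37 (SE), or 2.13-fold lower, with a limma p of 0.0195 and an adjusted p of 0.226. Rpl14, also of the large subunit, had 8.91, 8.97 and 9.49 in Runx3-/- and 9.40, 10.23 and 10.08 in WT, a difference of -0.78 ± 0.29 (adjusted p = 0.259 in limma). Its groups overlapped, since Runx3-/- replicate 3 lay above WT replicate 1. Neither call held under every omission of 1 array. The Rpl27a difference missed the thresholds without Runx3-/- replicate 2 (-0.80), Runx3-/- replicate 3 (-0.96) or WT replicate 1 (-0.97). The Rpl14 difference missed them without Runx3-/- replicate 1 (-0.67), Runx3-/- replicate 2 (-0.70), WT replicate 2 (-0.62) or WT replicate 3 (-0.69). Both differences stayed past 1.5-fold throughout, so that only the limit of p under 0.05 was missed.

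Rpl4 and Rpl13a, a protein also known as part of an interferon-induced translational silencing complex, were bright on all arrays. Rpl13a had 15.52, 15.43 and 15.62 in Runx3-/- and 15.64, 15.77 and 15.67 in WT. The Runx3-/- arrays were all below the WT arrays, by -0.17 on average (adjusted p = 0.675 in limma), and its 3 other probe sets gave -0.19 to -0.55. Rpl4 had 15.37, 15.24 and 15.23 in Runx3-/- and 15.69, 15.40 and 15.45 in WT, also without overlap (difference -0.24). Named after their values were seen, Rpl35 (-0.35), Rpl19 (-0.31) and Rpl8 (-0.27) were the other large subunit genes without overlap beside Rpl37a, described below. None of these genes passed p under 0.05 in its brightest probe set. One further Rpl13a probe set, with the difference of -0.55, had an unadjusted p under 0.05 in the fit of every probe set and was short of 1.5-fold.

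Rpl11, which with Rpl5 binds the p53 regulator Mdm2 when ribosome assembly fails, was the large subunit gene above zero. It had 13.33, 13.31 and 13.46 in Runx3-/- and 13.38, 12.75 and 13.54 in WT, so that WT replicate 2 alone lay well below the rest. The difference was 0.15 (95% interval -0.44 to 0.73), and -0.09 without that array. Rpl7, Rpl38, which is needed for translation of Hox mRNAs, and Rpl39, which lines the exit tunnel, differed by -0.06, -0.17 and -0.09, each with overlapping groups. Rpl22, a protein needed for the development of αβ T cells, had a difference of -0.19 in its brightest probe set, with 14.22, 14.42 and 14.79 in Runx3-/- and 14.55, 14.66 and 14.79 in WT.

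**Figure D3:**
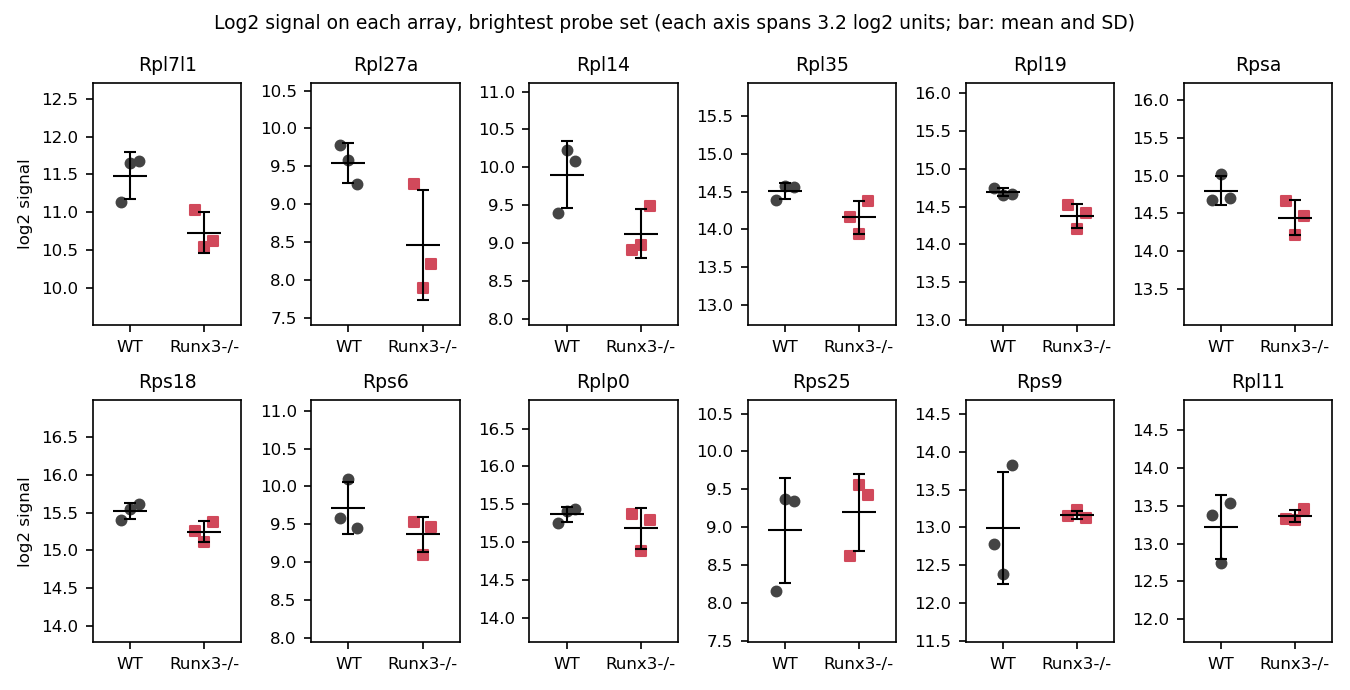
Log2 signal of 12 member genes on each of the 3 WT and 3 Runx3-/- arrays (vertical axes, each spanning the same range of log2 units), with the mean and SD of each group. Rpl7l1, Rpl35, Rpl19, Rpsa and Rps18 have no overlap between groups, while Rpl27a and Rpl14 touch or overlap and Rps9 and Rpl11 have WT arrays on both sides of the Runx3-/- arrays.

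Among the small subunit genes 0 of 19 tested reached the thresholds, 15 were below zero, and the median was -0.14. Rpsa, which is also known as the laminin receptor, had 14.67, 14.21 and 14.46 in Runx3-/- and 14.68, 15.02 and 14.70 in WT. The groups did not overlap, by a narrow margin between Runx3-/- replicate 1 and WT replicate 1, and the difference was -0.36 (95% interval -0.86 to 0.15). Rps6, the ribosomal substrate of the S6 kinases downstream of mTOR, had 9.53, 9.10 and 9.46 in Runx3-/- and 9.58, 10.10 and 9.46 in WT, with overlap and a difference of -0.35 (adjusted p = 0.515 in limma). Rps18 (-0.28) and Rps7 (-0.21), named after their values were seen, also had no overlap.

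Rps3, which sits at the mRNA entry site, Rps4x, encoded on the X chromosome, Rps14, lost in the human 5q- syndrome, and Rps19, mutated in Diamond-Blackfan anaemia, had overlapping groups and differences of -0.18, -0.06, -0.04 and -0.17. Rps29, a small subunit protein with a zinc finger, was nearly level, with 15.80, 15.77 and 15.61 in Runx3-/- and 15.77, 15.71 and 15.80 in WT. Its difference was -0.04 and became 0.09 with arrays centred on their tested genes.

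The largest differences above zero were in the small subunit. Rps25, which some viral internal ribosome entry sites require, had 8.61, 9.55 and 9.42 in Runx3-/- and 8.16, 9.37 and 9.34 in WT. In both groups the array numbered 1 was low, and the difference was 0.24 (95% interval -0.70 to 1.17). Rps9 had 13.15, 13.23 and 13.13 in Runx3-/- and 12.78, 12.38 and 13.82 in WT, a difference of 0.17 with the Runx3-/- arrays between the WT arrays. Without WT replicate 3 the Rps9 difference was 0.59, past the thresholds, and without WT replicate 2 it was -0.13. Rps15 had 14.46, 13.10 and 13.53 in Runx3-/- and 13.62, 12.88 and 14.21 in WT, a difference of 0.13 within a wide spread, and Rps24 differed by 0.08.

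In the P stalk, Rplp0 had 15.37, 14.88 and 15.29 in Runx3-/- and 15.25, 15.42 and 15.44 in WT, and Rplp2 had 15.48, 14.94 and 15.17 in Runx3-/- and 15.21, 15.13 and 15.42 in WT. Runx3-/- replicate 2 was the lowest array for both. The differences of -0.19 and -0.06 were within the spread of the arrays, and without that array Rplp0 differed by -0.04 and Rplp2 by 0.07.

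The paralogs held the remaining call. Rpl7l1, an Rpl7-like protein known from precursors of the large subunit in the nucleolus, had 11.04, 10.55 and 10.62 in Runx3-/- and 11.13, 11.65 and 11.67 in WT. The groups did not overlap, although Runx3-/- replicate 1 and WT replicate 1 lay close together, and the difference was -0.75 ± 0.25 (SE), 1.68-fold lower (limma adjusted p = 0.216). It missed the thresholds without Runx3-/- replicate 2 (-0.66), Runx3-/- replicate 3 (-0.69), WT replicate 2 (-0.67) or WT replicate 3 (-0.66). A second Rpl7l1 probe set fell the same way (8.93, 8.39 and 8.79 against 8.91, 9.33 and 9.58, a difference of -0.57), short of the thresholds. Another, dim one went the other way, with 5.70, 6.00 and 6.67 in Runx3-/- and 6.72, 2.97 and 2.98 in WT, of which the last pair is below the background level of log2 5.

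Rpl22l1, the paralog of Rpl22, had 12.36, 13.31 and 13.11 in Runx3-/- and 13.15, 13.06 and 13.53 in WT. Rps27l, a p53 target related to Rps27, had 10.56, 10.66 and 11.36 in Runx3-/- and 10.76, 11.19 and 11.52 in WT. Their differences of -0.31 and -0.30 had overlapping groups. Rpl3l, known from striated muscle, Rpl39l, known from testis, and Rps4l lay below log2 5 on all 6 arrays, as did the probe sets of the standard members Rps16 and Rps27, and these 5 genes were not tested. In all, 17 of the 105 member probe sets were below log2 5 on every array, at log2 1.58 to 4.51, 86 were at or above it on every array, and 2 on some. For the standard members Rps16 and Rps27, such a value says that these probe sets gave no signal over background and not that the mRNA was absent.

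Probe sets of the same gene did not always go together. On these arrays a name ending in _x_at marks probes that can also bind other transcripts, and 38.1% of the member probe sets carried it against 5.83% of all probe sets with 1 gene. Fitted probe set by probe set, 4 of 88 member probe sets were lower at the thresholds and 0 higher, beside 7.66% and 5.19% of 16521 probe sets. In limma 0 passed the 5% adjustment beside 0.0847%, and 6 (6.82%) had an unadjusted p under 0.05 beside 14.3% of all. Groups did not overlap in 14 member probe sets (15.9%), all lower. Of all 16521 probe sets 3525 (21.3%) did not overlap in either direction, and 2471 of these were lower. The call added here was a probe set of Rpl22, at 8.62, 8.51 and 9.07 in Runx3-/- and 8.89, 9.96 and 9.97 in WT, a difference of -0.87. Of the 20 genes with several probe sets at log2 5 or more on all arrays, 6 had probe sets of opposite sign and 3 had differences more than 1.5-fold apart, which together were Rpl22, Rpl27, Rpl37a, Rpl41, Rps9, Rps10 and Rps24.

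Rpl37a showed the widest gap. Its brightest probe set had 14.65, 14.16 and 14.52 in Runx3-/- and 14.67, 14.69 and 14.73 in WT, lower by 0.26 on the log2 scale and without overlap. Another had 12.44, 11.64 and 12.21 in Runx3-/- and 10.68, 11.54 and 12.68 in WT, a difference of 0.46. The WT arrays differed among themselves by more than the groups did. One probe set of Rps10 gave 13.10, 12.41 and 12.86 against 11.33, 12.12 and 13.53 in WT, a difference of 0.46, while its brightest gave -0.21. The probe sets of Rpl27 ran from -0.08 to 0.43, those of Rps24 from -0.23 to 0.33, and those of Rpl41 from -0.18 to 0.11.

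WT replicate 3 stood apart from the other WT arrays in several of these probe sets and in the Gapdh control for RNA quality. In 17 of the 86 probe sets at log2 5 or more on all arrays it lay more than 1.5-fold above the mean of WT replicates 1 and 2, and in 0 more than 1.5-fold below. Of those 17, 8 had a Runx3-/- mean above the WT mean, and 0 a Runx3-/- mean above WT replicate 3; of the other 69, 4 had a Runx3-/- mean above the WT mean. These counts share the WT values. The 17 were picked for a high WT replicate 3, which itself favours a Runx3-/- mean below that array. The counts are given as a description. The 3′ probe set of Gapdh exceeded the 5′ one by log2 3.95 and 4.38 in WT replicates 1 and 2, by 1.96 in WT replicate 3, and by 2.54, 2.16 and 2.29 in Runx3-/-. For beta-actin the same difference was 1.35, 2.60 and 1.01 in WT and 1.23, 0.63 and 0.89 in Runx3-/-, so that there WT replicate 2 was the one apart. The part of RNA quality in the differences of the members was not tested.

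**Figure D4:**
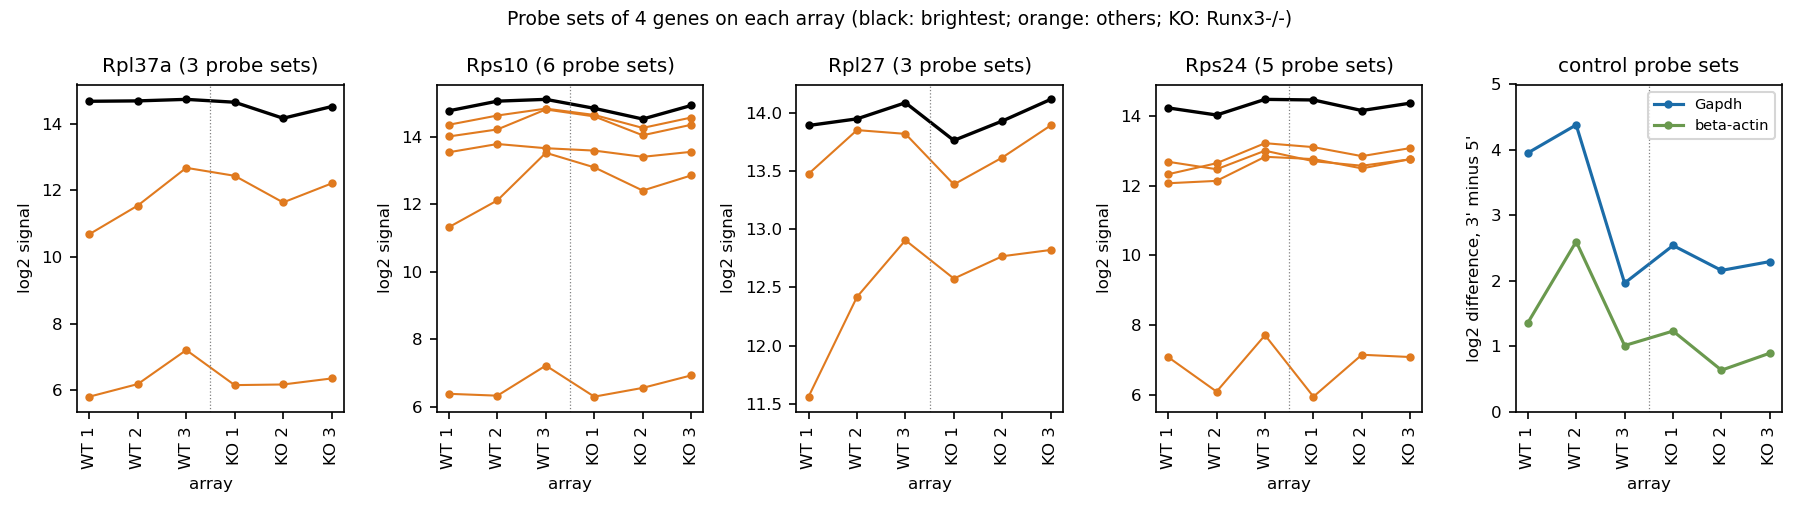
Log2 signal (vertical axes) of the probe sets of Rpl37a, Rps10, Rpl27 and Rps24 that reached log2 5 on all arrays, on each WT and Runx3-/- (KO) array, with the brightest in black, and at the right the 3′ minus 5′ difference of the Gapdh and beta-actin control probe sets. WT array 3 is above WT arrays 1 and 2 in several of the dimmer probe sets, and its Gapdh difference is 1.96 against 3.95 and 4.38.

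Beside the members, 110 probe sets listed a ribosomal protein symbol together with other genes. Of these, 98 were tested, 3 were lower and 1 higher at the thresholds, 0 passed 5% after adjustment in limma (4 at an unadjusted p under 0.05), and the median was -0.12 with 79 below zero. The calls at the thresholds were 4.08% of these probe sets, beside 12.9% of all probe sets with 1 gene.

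Other genes of the translation machinery were taken from lists and showed larger shifts in some classes. The mitochondrial ribosomal proteins, which serve the separate ribosomes of mitochondria, had a median of -0.35, and 9 of 76 were lower at the thresholds and 0 higher. Of 66 tested ribosome biogenesis factors, which make and process rRNA and assemble the subunits, 10 were lower and 0 higher, with a median of -0.27. Among them Nob1, the nuclease that finishes 18S rRNA, had 8.83, 8.76 and 8.87 in Runx3-/- and 9.42, 9.73 and 9.75 in WT. Its groups did not overlap (difference -0.81, limma adjusted p = 0.130). Nop56, a core protein of the snoRNA particles that modify rRNA, differed by -0.70, Noc2l by -0.94, and Polr1a, the catalytic subunit of RNA polymerase I, by -0.62, all without overlap.

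Of 35 tested initiation factors 1 was lower (Eif2b5, -0.70) and 0 higher, with a median of -0.25. Of 11 elongation and termination factors 0 passed (median -0.10), and of 16 tested genes whose mRNAs share the TOP motif or which are counted with that class 0 passed (median -0.04). Eef1a1 and Eef2, which carry tRNA to the ribosome and move it along, differed by -0.06 and -0.32, and Fau, the precursor of the small subunit protein eS30, by 0.10.

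Of 23 tested kinases and regulators of translation, 1 was lower and 2 were higher, with a median of -0.19. Rptor, which encodes the mTORC1 subunit Raptor, had 9.02, 9.08 and 9.19 in Runx3-/- and 10.01, 10.35 and 10.28 in WT. The groups were far apart, with a difference of -1.11 that did not pass the adjustment (limma adjusted p = 0.0637). Rps6ka3, a kinase of the RSK family downstream of ERK, was higher by 1.13 (11.01, 11.10 and 10.76 against 9.87, 10.17 and 9.44), and Max, the partner of Myc, by 0.83. Mtor (-0.42), Myc (-0.68) and Larp1 (-0.35) did not pass p under 0.05. None of the genes named from these lists passed the 5% adjustment. These lists were chosen with earlier results of the arrays known, so their counts are descriptions beside the 8.86% and 4.89% of all genes.

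**Figure D5:**
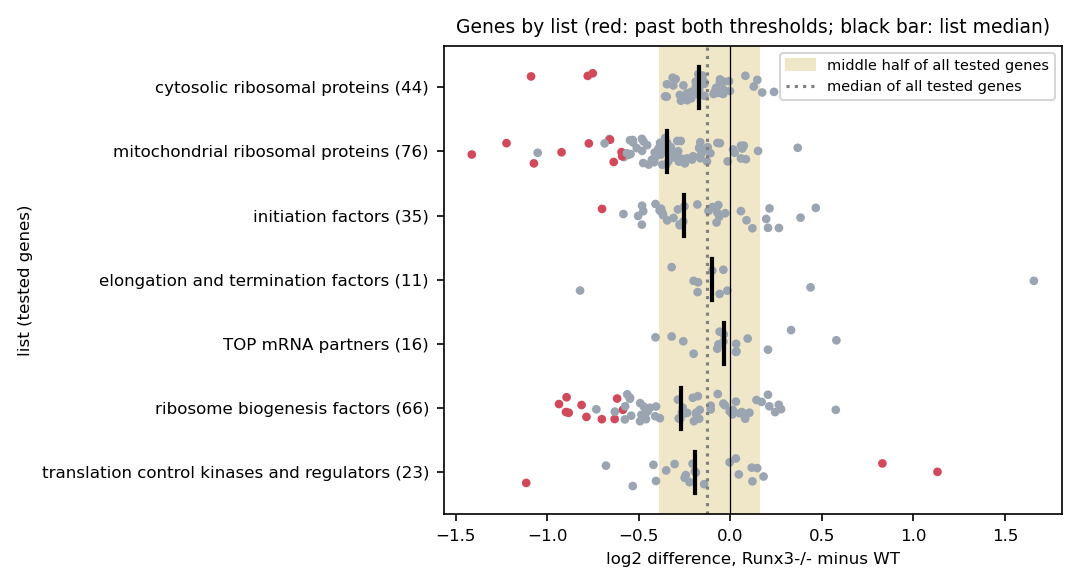
Difference in log2 signal between Runx3-/- and WT (horizontal axis) for the tested genes of each list, with the number tested in brackets, the list median as a black bar and genes at p under 0.05 and 1.5-fold in red. The cytosolic ribosomal proteins cluster around their median of -0.17 with 3 genes apart, while the mitochondrial ribosomal proteins have their median at -0.35 and 9 genes in red.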

How the data were processed

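RNA of 6 samples of sorted splenic NKC (3 WT, 3 Runx3-/-) was hybridised to Affymetrix mouse expression arrays. The authors processed the scans in Partek with GC-RMA, per the submitters' processing notes without versions, and deposited log2 values for 45101 probe sets. GC-RMA scales the arrays to each other, so a change in total RNA per cell cannot be seen, and values near background follow its model. The deposited values still differed between arrays, with medians over all probe sets of log2 3.42 to 3.52. No array build is named, so no coordinates of probe sets are given.

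Probe sets with 1 gene symbol (34945) were named through the platform annotation. Each gene was represented by its brightest probe set over the 6 arrays, and genes at log2 5 or more on at least 1 array were fitted with limma 3.58.1 in R 4.3.3 (lmFit, eBayes, Benjamini-Hochberg over all tested genes). log2 5 stands in for the study's background level, for which no value was found in those sources. The unadjusted p of 0.05 and 1.5-fold are the study's thresholds. The fit was tested on simulated data. The p-values set each difference against the spread between these arrays. For this, limma draws the variance of each gene towards a value shared by all tested genes. No pair of arrays was a repeat deposit (at most 0.0111% identical values).

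The text names members at the thresholds, the 5 largest rises and falls among members with a mean of at least log2 8, the 3 brightest and 3 dimmest, those whose probe sets disagreed, and a list chosen by role. Members and lists were chosen with earlier results of these data known. Alternatives covered filters, centring, quantile normalization, probe set choice, variance settings, the replicate number and each array left out.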

Additional observations from a re-analysis of the deposited data

How the results depend on the processing

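Under 21 alternatives, 18 planned and 3 chosen after seeing the data, 0 members passed the 5% adjustment. The median of the tested members and the module difference stayed below zero, but not all alternatives could move them. The filters, the variance settings and the replicate block leave the module difference at -0.12 by construction. A changed variance prior or the replicate block likewise leaves the median at -0.17. The 3 members at the thresholds became 1 with the mean of all probe sets of a gene, 4 with every probe set fitted, 8 (1 of them higher) when the shared probe sets were added to that fit, and 0 to 2 with 1 array left out, 0 when Runx3-/- replicate 2 was left out and 1 when Runx3-/- replicate 3 or WT replicate 2 was. With arrays centred on the median of their tested genes, the median was -0.049 and the module difference over all 105 member probe sets -1.8e-05. In the deposited scaling the module difference was -0.155 over the 86 probe sets at log2 5 or more on all arrays. With 1 array left out the median ran from -0.21 to -0.10, the latter without Runx3-/- replicate 2, and the module difference from -0.18 to -0.04. Rpl7l1 turned to 0.19 with the mean of all probe sets, which takes in its dim probe set (1.90). Rpl14 missed the thresholds with quantile normalization (-0.70) and with centring on tested genes (-0.66), and Rpl27a with the mean of all probe sets (-0.55). Over all tested genes, the 58 at 5% became 1 without a filter, 14 with every probe set fitted and also 14 with the shared ones added to it, 12 with the mean of probe sets, 203 with array weights and 0 to 130 with 1 array left out, the most without WT replicate 1. The causes were not tested. Same-numbered arrays did not deviate together (correlations 0.0652, -0.186 and 0.154), so the numbers were not taken as pairs. With the replicate number as a block, 3 members were at the thresholds, 0 passed the adjustment, and the count over all genes at 5% was 0.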

Other observations

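The array also carries control probe sets for 18S rRNA, the RNA of the small subunit. The study's methods name a whole-transcript labelling kit and the sample labels another, so how far rRNA was labelled is not known here. The 5′ probe set had log2 12.94, 12.65 and 12.54 in Runx3-/- and 12.71, 12.35 and 11.96 in WT, with overlap. The middle one had 12.76, 11.25 and 11.18 in Runx3-/- and 11.93, 11.68 and 12.05 in WT, with Runx3-/- replicate 1 above all other arrays and the other two Runx3-/- arrays below them.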
